A study of Homo sapiens with 24 samples.

Results

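Cholesterol and fatty acid synthesis genes were examined as a set of 35 listed genes: enzymes of the sterol pathway, regulators and targets of the sterol regulatory element binding proteins (SREBPs), and targets of the liver X receptors (LXRs). A gene was taken as measured where a probe set on the array carried its symbol and no other, which held for 32 of the 35 genes, out of 18417 genes measured in all. FDFT1, HSD17B7 and NR1H2 were not analysed here. Where a gene had several such probe sets, the one with the highest mean signal stood for it; among the 32 members this concerned CYP51A1 alone.

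The cells were THP-1, a human monocytic leukaemia line, stably carrying a pSLIK_Neo lentiviral cassette with a tetracycline-inducible promoter. Of the 3 lines, the vector line carried the cassette without an insert, and the NLRP4 and NOD1 lines carried the 3X FLAG-tagged coding sequence of an innate immune receptor of the NLR family. Each line was measured without doxycycline (DOX) and after 6 h of DOX at 1 µg/ml, which gives 6 groups of 4 Affymetrix Human Gene ST arrays, 24 in all, each hybridised with total RNA from 50000 cells plated in a well of a 96-well plate. Infection was kept under 30% so that most cells would hold a single integration, cells were selected with G418 at 1 mg/ml, and all lines, the vector line included, shared these steps. The labels describe 1 line per construct and do not say whether it was cloned or whether the 4 wells were separate cultures, so p-values here reflect how far these wells differ among themselves, which may be technical spread. Wells were filled in an order set in advance and not randomized, in which each group was a consecutive block, so line, DOX and place in that order cannot be told apart.

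Cells make cholesterol from acetyl-CoA through mevalonate, squalene and lanosterol, and make fatty acids from the same precursor. The transcription factors SREBF1 and SREBF2 switch on most enzymes of both routes; SCAP carries them out of the endoplasmic reticulum when sterol is scarce, and INSIG1 and INSIG2 hold SCAP back when sterol is plentiful. LXRs respond to oxysterols and raise the transporters ABCA1 and ABCG1, through which macrophages and monocytic cells export cholesterol, and MYLIP, a ubiquitin ligase that lowers lipoprotein uptake. Values below are log2 signals after quantile normalization between arrays, a difference is a difference of mean log2 signal between groups of 4 arrays with its standard error (SE) from limma, and a gene is called changed where its Benjamini-Hochberg adjusted p over the 18417 genes is under 0.05. The levels of different genes cannot be compared, since each probe set has its own response.

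The induced genes matched the labels: NOD1 averaged 8.33 in uninduced vector cells and, in its own line, 8.74 without and 12.75 with DOX, and NLRP4 averaged 6.92 in uninduced vector cells and 8.09 and 11.93 in its own line, with SDs of 0.18 to 0.43 (n = 4). Array medians of the deposited values ran from 8.06 to 8.85, and arrays of 1 group correlated at 0.982 to 0.993. Of 12 monocyte and myeloid markers 10 were measured, and their mean per array was 9.84 to 10.05 in the uninduced and 9.90 to 9.95 in the induced vector line, 9.94 to 10.02 and 9.97 to 10.08 in the NLRP4 line, and 10.31 to 10.42 and 10.21 to 10.36 in the NOD1 line. The lysosomal glycoprotein CD68, one of them, averaged 11.49 in the uninduced vector line and 12.68 in the uninduced NOD1 line. Of 10 markers of other cell types 8 were measured, and CD3D, CD3E, MS4A1 and HBB lay in the lowest 25% of genes. EPCAM, KRT19, COL1A1 and PECAM1 did not, averaging 8.30, 8.62, 9.39 and 12.70 over all arrays. The group means of PECAM1 ran from 12.66 to 12.75, and whether its signal came from another cell type was not tested. The list's mean per array was 8.496 to 8.69 in the uninduced and 8.46 to 8.59 in the induced vector line. It was 8.42 to 8.62 and 8.41 to 8.75 in the NLRP4 line, and 8.21 to 8.33 and 8.14 to 8.38 in the NOD1 line. The epithelial marker EPCAM averaged 9.01 in the uninduced vector line and 7.12 in the uninduced NOD1 line, where the arrays overlapped (7.70 to 9.90 and 6.38 to 7.81). The uninduced NLRP4 arrays started at 8.38, above all uninduced NOD1 arrays. With DOX the highest NOD1 array was 7.64, below the lowest vector array at 8.24 and the lowest NLRP4 array at 8.01. Without EPCAM the mean of the other 7 was 8.46 to 8.61 and 8.48 to 8.497 in the vector line, 8.42 to 8.595 and 8.47 to 8.62 in the NLRP4 line and 8.35 to 8.51 and 8.404 to 8.49 in the NOD1 line, so the lines overlapped. The mean of the myeloid markers was thus higher and EPCAM averaged lower in the NOD1 line, and their part in the differences that follow was not tested. In these bulk samples, fewer cells of a kind and less RNA per cell cannot be told apart.

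Promoter sequence was available for 28 of the 32 measured members from RefSeq (GRCh38.p14), and 4 are shown. The 4 sequences are examples, from INSIG1 and STARD4, called lower in the NOD1 line, NSDHL, called higher, and SREBF2, called higher without DOX alone. Each is the 250 bases before the transcription start, written 5′ to 3′ on the gene's strand, with CCAAT boxes (CCAAT on either strand), E-boxes (CACGTG) and the sterol regulatory element (TCACNCCAC on either strand) in capitals. They lie at chr7:155297628-155297877 (plus strand, INSIG1), chr5:111512536-111512785 (minus strand, STARD4), chrX:152830813-152831062 (plus strand, NSDHL) and chr22:41832855-41833104 (plus strand, SREBF2).
INSIG1: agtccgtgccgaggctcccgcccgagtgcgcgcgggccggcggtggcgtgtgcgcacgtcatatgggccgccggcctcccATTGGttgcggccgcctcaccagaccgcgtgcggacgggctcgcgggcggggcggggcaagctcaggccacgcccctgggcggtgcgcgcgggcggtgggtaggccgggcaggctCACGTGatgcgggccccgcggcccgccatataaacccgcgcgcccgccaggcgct
STARD4: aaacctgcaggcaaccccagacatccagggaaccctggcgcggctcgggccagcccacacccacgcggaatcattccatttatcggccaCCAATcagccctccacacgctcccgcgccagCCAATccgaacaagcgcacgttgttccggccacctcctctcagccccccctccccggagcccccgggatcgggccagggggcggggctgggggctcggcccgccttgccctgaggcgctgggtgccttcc
NSDHL: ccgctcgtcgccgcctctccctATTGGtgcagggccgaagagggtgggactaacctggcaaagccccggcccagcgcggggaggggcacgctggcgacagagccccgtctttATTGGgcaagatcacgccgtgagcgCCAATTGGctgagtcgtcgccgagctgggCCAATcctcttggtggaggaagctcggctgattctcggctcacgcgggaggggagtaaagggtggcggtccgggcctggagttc
SREBF2: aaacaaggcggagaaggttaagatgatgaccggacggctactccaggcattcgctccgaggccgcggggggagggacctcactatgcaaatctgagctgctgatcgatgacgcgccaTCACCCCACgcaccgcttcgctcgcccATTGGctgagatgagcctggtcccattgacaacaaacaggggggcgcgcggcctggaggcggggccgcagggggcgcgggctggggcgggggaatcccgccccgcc
The INSIG1 window holds 1 CCAAT box and 1 E-box, the STARD4 window 2 CCAAT boxes, the NSDHL window 5 CCAAT boxes of which a pair overlaps on opposite strands, and the SREBF2 window 1 CCAAT box and 1 sterol regulatory element. A CCAAT box was found in 18 of the 28 members (64.3%), against 40.4% of 14239 genes measured on the arrays that had such a window. By direction, 8 of 12 members called lower in the NOD1 line had one, and 3 of 4 called higher. The windows of CYP51A1 and INSIG2, also called lower in the NOD1 line, held no CCAAT box, E-box or sterol regulatory element of this spelling. The E-box was found in 4 members (14.3%) against 9.80% of those genes, and this spelling of the sterol regulatory element in SREBF2 alone (3.57%) against 1.19%. A match is a description of the letters and not of a bound site, and the search covered these 250 bases alone.

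Without DOX, the NOD1 line differed from the vector line in 9 of the 32 members (28.1%), against 24.9% of all genes. Of these, FDPS, NSDHL, SREBF2 and FASN were higher (all genes: 13.0% higher), by 0.29 to 0.44, and IDI1, CYP51A1, INSIG1, INSIG2 and MYLIP were lower (all genes: 11.9% lower), with differences of −0.40 to −0.73. The called members thus included enzymes and regulators in both directions, and their share was near the share of all genes. The median difference of the members was 0.01, beside 0.03 over all genes. With DOX, the same 2 lines differed in 14 members (43.8%), against 25.8% of all genes: PMVK, FDPS, NSDHL and FASN were higher (all genes: 13.6%) and IDI1, CYP51A1, SC5D, INSIG1, INSIG2, STARD4, SCD, ELOVL6, ABCA1 and MYLIP were lower (all genes: 12.2%). The members were chosen with earlier results of these data known, so their shares describe a choice. The shares of all genes given beside them include the genes of lowest mean signal. With the lowest 25% of genes left out, 4693 of 13813 genes were called with DOX, beside 4 members higher and 9 lower of 29. Without DOX, 4550 of these genes were called, beside 4 members higher and 8 lower. The difference in count between the conditions was not tested as such. No member's DOX effect differed between the lines at an adjusted p under 0.05.

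**Figure D1:**
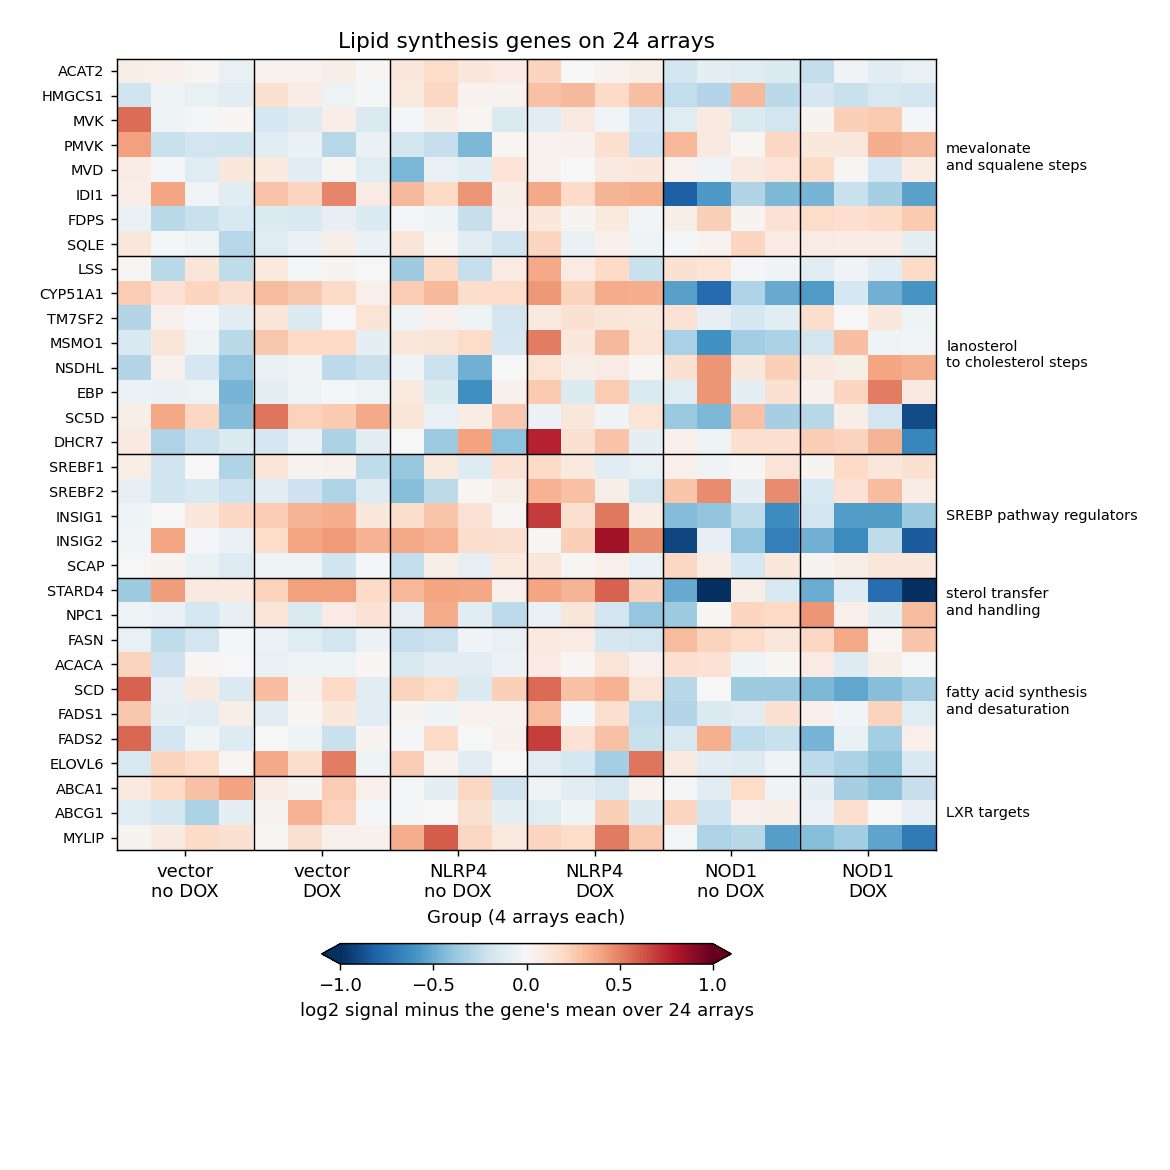
Log2 signal of each of the 32 measured members (rows, grouped by role) on each of the 24 arrays (columns, grouped by line and DOX), as the deviation from that gene's mean over all arrays; the colour scale ends at deviations of −1 and 1. The 8 arrays of the NOD1 line are blue for CYP51A1, IDI1 and INSIG1 and mostly blue for STARD4 and SCD, while FASN and FDPS are mostly red there.

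Across the 4 comparisons of the NOD1 line with the vector or NLRP4 line, without and with DOX, 18 members were called at least once, 5 of them higher and 13 lower, and 0 in both directions. Over all genes 39.2% were called at least once, 21.5% higher and 17.8% lower. CYP51A1, IDI1, INSIG1, INSIG2 and MYLIP were lower in all 4 (all genes: 8.06%), and FASN was higher in all 4 (all genes: 7.48%). NSDHL was higher in 3, SCD and STARD4 were lower in 3, FDPS, PMVK and SREBF2 were higher in 2 and ACAT2 lower in 2. The comparisons within a DOX condition share the arrays of the NOD1 line, and the other 14 members were called in none. For the 12 members called most often, the 4 arrays of each group are given below in one fixed order, arrays 1 to 4.

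**Figure D2:**
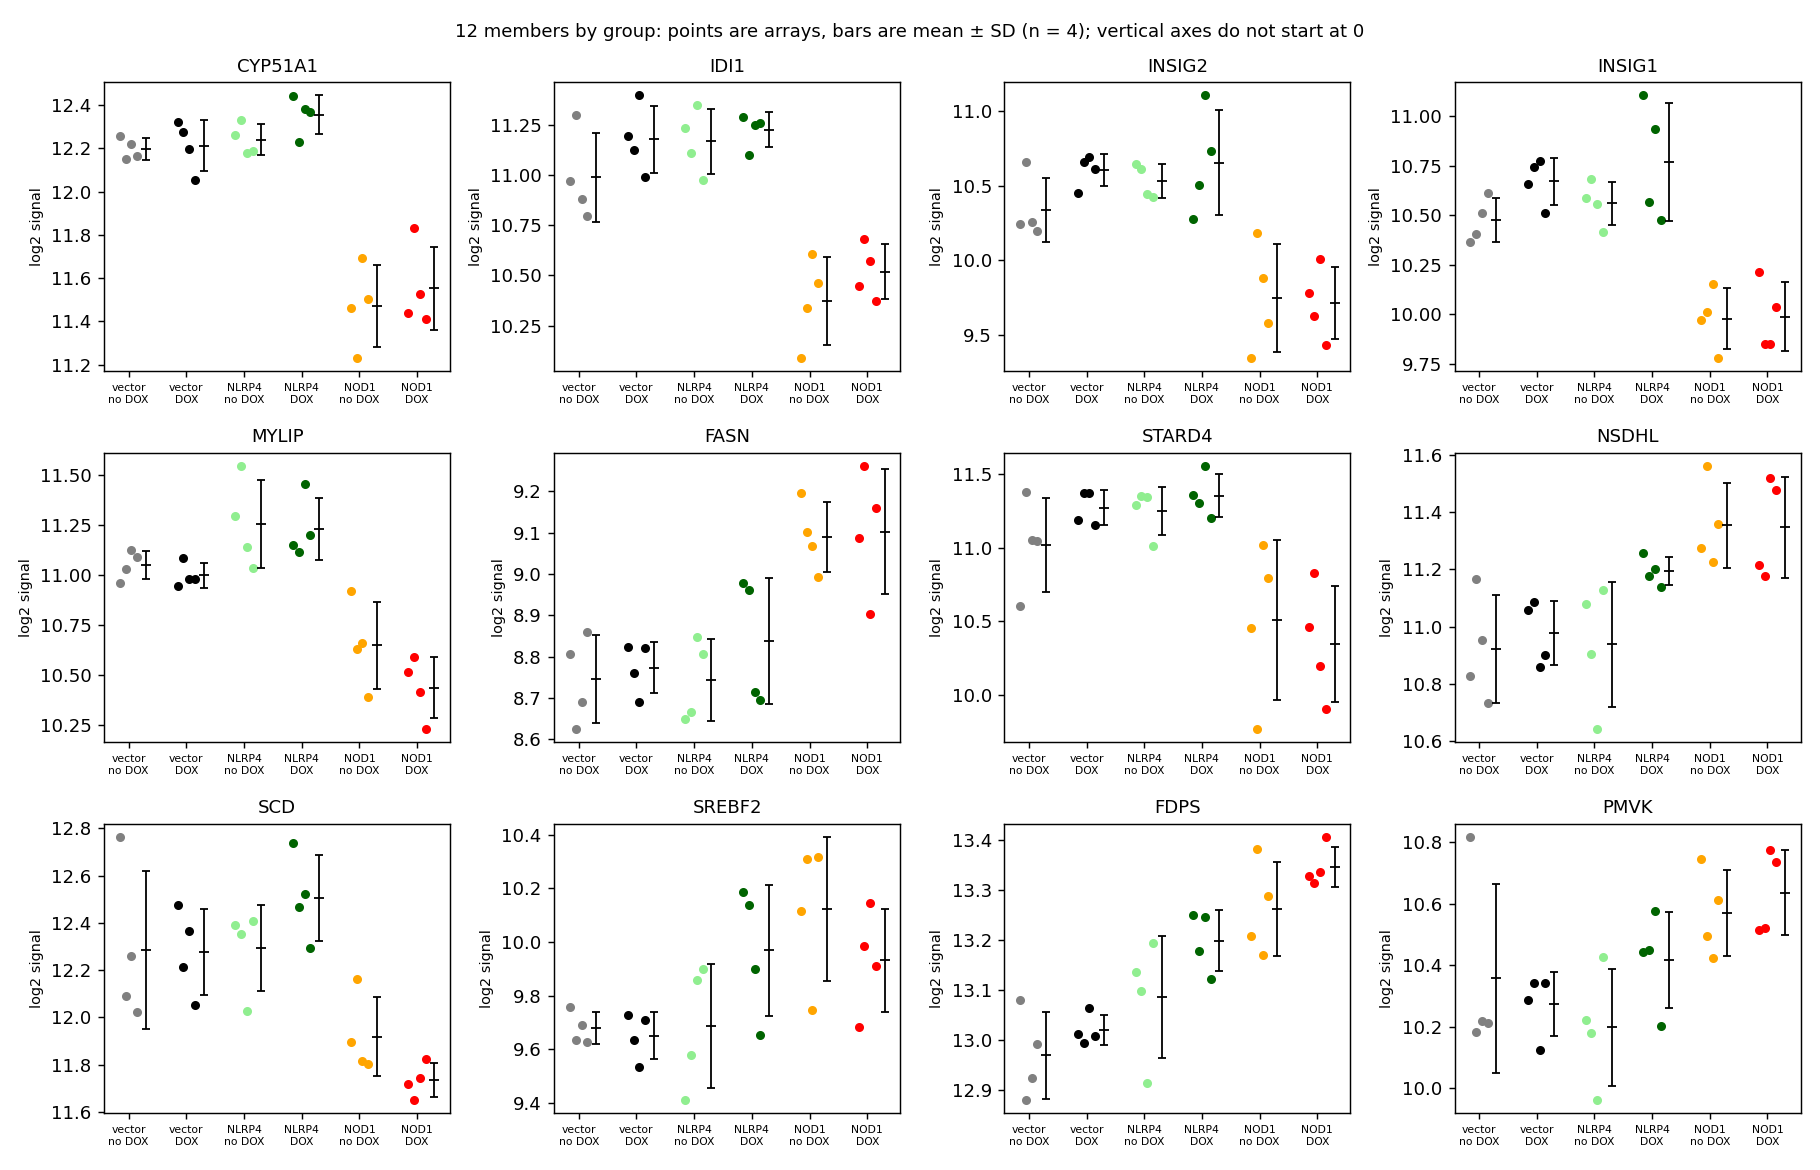
Log2 signal of the 12 members called most often between lines, in each of the 6 groups; points are single arrays, the bar beside them is the mean ± SD (n = 4), and the vertical axes do not start at 0. In the CYP51A1, IDI1 and INSIG1 panels the arrays of the NOD1 line lie below those of the other lines, while the mean of FASN and FDPS is higher in that line.

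Among the early steps, from acetyl-CoA units to squalene epoxide, IDI1 was lower in the NOD1 line in all 4 comparisons; it interconverts the isoprenoid building blocks made from mevalonate. IDI1 read 10.97, 11.30, 10.88 and 10.80 without DOX and 11.20, 11.12, 11.40 and 10.99 with DOX in the vector line. IDI1 read 11.23, 11.11, 11.35 and 10.97 without DOX and 11.29, 11.10, 11.25 and 11.26 with DOX in the NLRP4 line. IDI1 read 10.09, 10.34, 10.61 and 10.46 without DOX and 10.45, 10.68, 10.57 and 10.37 with DOX in the NOD1 line. Every array of the NOD1 line lay below every array of the other lines in the same DOX condition. The difference from the vector line was −0.61 (SE 0.118, adjusted p = 0.000366) without DOX, 1.53-fold lower, and −0.66 (SE 0.118, adjusted p = 0.000158) with DOX. Against the NLRP4 line it was −0.79 (adjusted p = 1.65e-05) without and −0.71 (adjusted p = 7.69e-05) with DOX. FDPS, the next enzyme, which joins those building blocks into farnesyl diphosphate, went the other way. It read 13.08, 12.88, 12.92 and 12.99 without DOX and 13.01, 12.99, 13.06 and 13.01 with DOX in the vector line. It read 13.14, 13.10, 12.91 and 13.20 without DOX and 13.25, 13.18, 13.25 and 13.12 with DOX in the NLRP4 line. It read 13.21, 13.38, 13.17 and 13.29 without DOX and 13.33, 13.31, 13.34 and 13.41 with DOX in the NOD1 line. The NOD1 and vector lines did not overlap in either condition. FDPS was higher than in the vector line by 0.29 (SE 0.0709, adjusted p = 0.00299) without DOX and 0.33 (SE 0.0709, adjusted p = 0.00106) with DOX, while its differences from the NLRP4 line were 0.18 (adjusted p = 0.0690) and 0.15 (adjusted p = 0.139). When each array was centred on its median in place of quantile normalization, the FDPS calls against the vector line were lost, giving 0.17 (adjusted p = 0.458) without and 0.38 (adjusted p = 0.0646) with DOX, and the uninduced call was also lost without the 4 dimmest arrays, at 0.22 (adjusted p = 0.0557). The uninduced difference from the NLRP4 line passed the threshold without NLRP4 array 4, at 0.21 (adjusted p = 0.0416), without NOD1 array 3, at 0.21 (adjusted p = 0.0459), and with cyclic loess, at 0.19 (adjusted p = 0.0476).

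PMVK, which phosphorylates phosphomevalonate, read 10.82, 10.18, 10.22 and 10.21 without DOX and 10.29, 10.34, 10.12 and 10.34 with DOX in the vector line. It read 10.22, 10.18, 9.96 and 10.43 without DOX and 10.44, 10.45, 10.58 and 10.20 with DOX in the NLRP4 line. It read 10.74, 10.49, 10.42 and 10.61 without DOX and 10.51, 10.52, 10.77 and 10.74 with DOX in the NOD1 line. Vector array 1 without DOX stood above the other 3 vector arrays and overlapped the NOD1 line. PMVK was higher than in the vector line with DOX, by 0.36 (SE 0.125, adjusted p = 0.0349), and higher than in the NLRP4 line without DOX, by 0.37 (SE 0.125, adjusted p = 0.0294); the uninduced difference from the vector line was 0.21 (adjusted p = 0.2495), and 0.37 (adjusted p = 0.0144) without vector array 1. Both calls were lost when single arrays were left out. The call against the vector line was lost without vector array 1, at 0.37 (adjusted p = 0.0617), vector array 3, at 0.31 (adjusted p = 0.110), NOD1 array 3, at 0.32 (adjusted p = 0.102), or NOD1 array 4, at 0.33 (adjusted p = 0.0925), and also with cyclic loess, at 0.33 (adjusted p = 0.0537), on the deposited values, at 0.33 (adjusted p = 0.105), and without the 4 dimmest arrays, at 0.32 (adjusted p = 0.104). The call against the NLRP4 line was lost without NLRP4 array 1, 2 or 3, at 0.38 (adjusted p = 0.0512), 0.36 (adjusted p = 0.0589) and 0.29 (adjusted p = 0.117), or without NOD1 array 1 or 4, at 0.31 (adjusted p = 0.0966) and 0.36 (adjusted p = 0.0651). It was also lost with cyclic loess, at 0.32 (adjusted p = 0.0603), with centred arrays, at 0.23 (adjusted p = 0.155), with the array median as a covariate, at 0.29 (adjusted p = 0.0996), and without the 4 dimmest arrays, at 0.40 (adjusted p = 0.0687). HMGCS1, which makes the substrate of the mevalonate-forming reductase, read 12.48, 12.51, 12.38 and 12.49 in the induced NLRP4 line and 12.02, 11.96, 12.03 and 12.004 in the induced NOD1 line, with no overlap. It was lower in the induced NOD1 line, at −0.46 (SE 0.0996, adjusted p = 0.00112), a call lost when each array was centred on its median, giving −0.22 (adjusted p = 0.384). Against the induced vector line it differed by −0.22 (adjusted p = 0.109), or −0.22 (adjusted p = 0.0425) in a fit of the 2 groups alone. Without DOX its difference from the NLRP4 line was −0.21 (adjusted p = 0.128), and −0.36 (adjusted p = 0.000436) once NOD1 array 3 was left out, which read 12.52 against 11.89 to 11.94 for the other 3 arrays of that group. ACAT2, a cytosolic thiolase that supplies acetoacetyl-CoA, read 12.73, 12.81, 12.73 and 12.70 in the uninduced NLRP4 line and 12.44, 12.53, 12.50 and 12.48 in the uninduced NOD1 line, with no overlap, and was lower there, at −0.26 (SE 0.0652, adjusted p = 0.00414). Its arrays also lay below those of the vector line, at −0.15 (adjusted p = 0.0989) without and −0.15 (adjusted p = 0.0909) with DOX, short of the threshold. With DOX, ACAT2 was lower than in the NLRP4 line, at −0.19 (SE 0.0652, adjusted p = 0.0300). The sign of that last difference turned when each array was centred on its median, giving 0.087 (adjusted p = 0.721), and the call was lost without NLRP4 array 1, at −0.15 (adjusted p = 0.122), NOD1 array 1, at −0.15 (adjusted p = 0.112), or NOD1 array 3, at −0.20 (adjusted p = 0.0539). The call was also lost with cyclic loess, at −0.16 (adjusted p = 0.0692), on the deposited values, at −0.10 (adjusted p = 0.425), and when the fit held only the 2 groups compared, at −0.19 (adjusted p = 0.132). The kinase MVK, the decarboxylase MVD and the squalene epoxidase SQLE were called in none of the comparisons between lines; MVK read 7.53 to 8.28 over the 24 arrays, MVD 8.90 to 9.55 and SQLE 12.55 to 13.05. Once arrays were centred, MVK passed the threshold against the uninduced vector line, at −0.33 (adjusted p = 0.0483). Under quantile normalization, uninduced vector array 1 read 8.28 for MVK, against 7.67 to 7.74 for the other 3 arrays of that group. The uninduced NOD1 arrays, at 7.53 to 7.81, overlapped those 3. MVD passed the threshold between the uninduced NOD1 and NLRP4 lines, among the alternatives run, only without NLRP4 array 4, at 0.27 (adjusted p = 0.0485) against 0.18 (adjusted p = 0.198) with all arrays.

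Among the steps from lanosterol to cholesterol, CYP51A1, the lanosterol demethylase, was lower in the NOD1 line in all 4 comparisons. CYP51A1 read 12.26, 12.15, 12.22 and 12.16 without DOX and 12.32, 12.27, 12.20 and 12.05 with DOX in the vector line. CYP51A1 read 12.26, 12.33, 12.18 and 12.19 without DOX and 12.44, 12.23, 12.38 and 12.37 with DOX in the NLRP4 line. CYP51A1 read 11.46, 11.23, 11.69 and 11.51 without DOX and 11.44, 11.83, 11.53 and 11.41 with DOX in the NOD1 line. The highest NOD1 array stayed below the lowest array of the other lines. CYP51A1 was lower than in the vector line, at −0.73 (SE 0.0959, adjusted p = 4.50e-06) without DOX, 1.65-fold, and at −0.66 (SE 0.0959, adjusted p = 1.34e-05) with DOX. It was lower than in the NLRP4 line, at −0.77 (adjusted p = 1.83e-06) without and −0.80 (adjusted p = 1.20e-06) with DOX. A second probe set of CYP51A1 differed in 1 of these: it gave −0.19 (adjusted p = 0.358) against the uninduced vector line, but −0.71 (adjusted p = 0.000382) against the induced vector line, −0.48 (adjusted p = 0.00988) against the uninduced NLRP4 line and −0.84 (adjusted p = 6.02e-05) against the induced NLRP4 line.

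NSDHL, a dehydrogenase that removes methyl groups from the sterol ring together with MSMO1, was higher in the NOD1 line. NSDHL read 10.83, 11.17, 10.95 and 10.73 without DOX and 11.06, 11.09, 10.86 and 10.90 with DOX in the vector line. NSDHL read 11.08, 10.90, 10.64 and 11.13 without DOX and 11.26, 11.18, 11.20 and 11.14 with DOX in the NLRP4 line. NSDHL read 11.27, 11.56, 11.22 and 11.36 without DOX and 11.22, 11.18, 11.52 and 11.48 with DOX in the NOD1 line. The NOD1 arrays lay above the vector arrays in both conditions, and overlapped the NLRP4 arrays with DOX. The difference from the vector line was 0.43 (SE 0.111, adjusted p = 0.00480) without and 0.37 (SE 0.111, adjusted p = 0.0145) with DOX, and that from the NLRP4 line was 0.42 (adjusted p = 0.00606) without and 0.15 (adjusted p = 0.355) with DOX. Centring arrays on their medians ended all 3 calls, at 0.29 (adjusted p = 0.278), 0.36 (adjusted p = 0.164) and 0.21 (adjusted p = 0.443). The induced call against the vector line was also lost on the deposited values, at 0.31 (adjusted p = 0.0629), and without vector array 3, at 0.33 (adjusted p = 0.0514), NOD1 array 3, at 0.31 (adjusted p = 0.0586), or NOD1 array 4, at 0.33 (adjusted p = 0.0522). MSMO1, a methylsterol monooxygenase, read 10.85, 10.87, 10.93 and 10.58 in the uninduced NLRP4 line and 10.42, 10.14, 10.40 and 10.43 in the uninduced NOD1 line, with no overlap, and was lower there, at −0.46 (SE 0.117, adjusted p = 0.00412). That call was lost without the 4 dimmest arrays, at −0.37 (adjusted p = 0.0523). MSMO1 differed from the uninduced vector line by −0.31 (adjusted p = 0.0540), or −0.37 (adjusted p = 0.0360) without vector array 4, −0.35 (adjusted p = 0.0345) with cyclic loess and −0.31 (adjusted p = 0.0429) without the lowest 25% of genes. It differed from the induced NLRP4 line by −0.25 (adjusted p = 0.123), or −0.35 (adjusted p = 0.0350) without NOD1 array 2.

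SC5D, a sterol desaturase near the end of the pathway, read 10.93, 10.62, 10.65 and 10.77 in the induced vector line and 10.12, 10.45, 10.20 and 9.50 in the induced NOD1 line. The groups did not overlap, and NOD1 array 4 was the lowest; SC5D was lower in the NOD1 line, at −0.68 (SE 0.178, adjusted p = 0.00555). SC5D was not called between the induced NOD1 and NLRP4 lines. The induced NLRP4 line itself differed from the induced vector line by −0.31, also not called. Without DOX, the difference of SC5D between the NOD1 and NLRP4 lines was −0.31 (adjusted p = 0.215), and −0.48 (adjusted p = 0.0384) without NOD1 array 3. The lanosterol synthase LSS, the sterol reductase TM7SF2, the sterol isomerase EBP and DHCR7, which catalyses the last step, were called in no comparison between lines. LSS read 7.79 to 8.52 over the 24 arrays, TM7SF2 8.27 to 8.73, EBP 11.84 to 12.96 and DHCR7 8.36 to 9.77. For EBP the interval of the difference between the NOD1 and vector lines was −0.052 to 0.57 without DOX, and for DHCR7 it was −0.17 to 0.62, and differences as large as some of the called ones lie inside these intervals. For TM7SF2 it was −0.14 to 0.21. Of the 8 measured enzymes of this stretch, 2, 3, 3 and 1 were called in the NOD1 line against the uninduced vector, uninduced NLRP4, induced vector and induced NLRP4 groups, beside 24.9%, 27.0%, 25.8% and 25.4% of all genes.

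Both INSIG genes, which encode the proteins that retain SCAP, were lower in the NOD1 line. INSIG1 read 10.37, 10.40, 10.51 and 10.61 without DOX and 10.66, 10.75, 10.77 and 10.51 with DOX in the vector line. INSIG1 read 10.59, 10.68, 10.56 and 10.42 without DOX and 11.11, 10.57, 10.94 and 10.48 with DOX in the NLRP4 line. INSIG1 read 9.97, 10.01, 10.15 and 9.78 without DOX and 10.21, 9.85, 9.85 and 10.04 with DOX in the NOD1 line. No array of the NOD1 line reached the lowest array of the others. INSIG1, itself an SREBP target, was lower than in the vector line, at −0.50 (SE 0.119, adjusted p = 0.00288) without and −0.68 (SE 0.119, adjusted p = 0.000113) with DOX, and lower than in the NLRP4 line at −0.58 (adjusted p = 0.000591) without and −0.78 (adjusted p = 2.54e-05) with DOX. INSIG2, its paralog, read 10.24, 10.66, 10.26 and 10.20 without DOX and 10.45, 10.66, 10.69 and 10.61 with DOX in the vector line. It read 10.65, 10.61, 10.45 and 10.43 without DOX and 10.28, 10.50, 11.11 and 10.73 with DOX in the NLRP4 line. It read 9.35, 10.18, 9.88 and 9.58 without DOX and 9.78, 9.63, 10.01 and 9.43 with DOX in the NOD1 line. Within each DOX condition the NOD1 arrays again lay below those of the other lines, by a small gap without DOX. INSIG2 was lower than in the vector line, at −0.59 (SE 0.165, adjusted p = 0.00951) without and −0.89 (SE 0.165, adjusted p = 0.000224) with DOX, 1.85-fold in the latter, and lower than in the NLRP4 line at −0.78 (adjusted p = 0.000769) without and −0.94 (adjusted p = 0.000129) with DOX.

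SREBF2, the transcription factor that mainly drives the sterol genes, was higher in the uninduced NOD1 line. SREBF2 read 9.76, 9.64, 9.69 and 9.63 without DOX and 9.73, 9.63, 9.53 and 9.71 with DOX in the vector line. SREBF2 read 9.41, 9.58, 9.86 and 9.90 without DOX and 10.19, 10.14, 9.90 and 9.66 with DOX in the NLRP4 line. SREBF2 read 10.12, 10.31, 9.75 and 10.32 without DOX and 9.69, 9.98, 10.15 and 9.91 with DOX in the NOD1 line. NOD1 array 3 without DOX lay within the vector range, and the other 3 lay above it. The uninduced NOD1 line was higher than the vector line by 0.44 (SE 0.132, adjusted p = 0.0146) and than the NLRP4 line by 0.43 (SE 0.132, adjusted p = 0.0155); with DOX the differences were 0.28 (adjusted p = 0.133) and −0.038 (adjusted p = 0.880). The call against the vector line was lost without NOD1 array 2, at 0.38 (adjusted p = 0.0606), without NOD1 array 4, at 0.38 (adjusted p = 0.0583), and without the 4 dimmest arrays, at 0.36 (adjusted p = 0.103). The call against the NLRP4 line was lost without NLRP4 array 1, at 0.34 (adjusted p = 0.0766), NOD1 array 2, at 0.37 (adjusted p = 0.0628), or NOD1 array 4, at 0.37 (adjusted p = 0.0619). It was also lost with centred arrays, at 0.36 (adjusted p = 0.0743), and without the 4 dimmest arrays, at 0.28 (adjusted p = 0.225). In a fit of the 2 groups compared alone it was 0.43 (adjusted p = 0.0621). SREBF1, which mainly drives the fatty acid genes, differed from the vector line by 0.14 (adjusted p = 0.391) without and 0.14 (adjusted p = 0.421) with DOX, and SCAP by 0.10 (adjusted p = 0.478) and 0.16 (adjusted p = 0.198); neither was called in any comparison.

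Of the 2 genes for moving sterol, STARD4, a carrier of cholesterol between membranes, was lower in the NOD1 line in 3 comparisons. STARD4 read 10.60, 11.38, 11.05 and 11.05 without DOX and 11.19, 11.37, 11.37 and 11.15 with DOX in the vector line. STARD4 read 11.29, 11.35, 11.34 and 11.01 without DOX and 11.36, 11.30, 11.55 and 11.20 with DOX in the NLRP4 line. STARD4 read 10.46, 9.77, 11.02 and 10.80 without DOX and 10.46, 10.83, 10.20 and 9.90 with DOX in the NOD1 line. With DOX, no NOD1 array reached the other lines in that condition, while without DOX the groups overlapped. STARD4 differed from the induced vector line by −0.92 (SE 0.204, adjusted p = 0.00133), 1.89-fold lower, and from the induced NLRP4 line by −1.003 (SE 0.204, adjusted p = 0.000622). Without DOX it was lower than in the NLRP4 line, at −0.74 (SE 0.204, adjusted p = 0.00818), a call lost without NOD1 array 2, at −0.49 (adjusted p = 0.0516), the lowest of all 24 arrays. Its uninduced difference from the vector line was −0.51 (adjusted p = 0.0741), and passed the threshold without vector array 1, at −0.65 (adjusted p = 0.0265), or NOD1 array 3, at −0.68 (adjusted p = 0.0162). NPC1, which exports cholesterol from lysosomes, was called in no comparison and read 8.38 to 9.20.

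In the fatty acid group, FASN, the fatty acid synthase, was higher in the NOD1 line in all 4 comparisons. FASN read 8.81, 8.63, 8.69 and 8.86 without DOX and 8.82, 8.76, 8.69 and 8.82 with DOX in the vector line. FASN read 8.65, 8.67, 8.85 and 8.81 without DOX and 8.98, 8.96, 8.71 and 8.70 with DOX in the NLRP4 line. FASN read 9.20, 9.10, 9.07 and 8.99 without DOX and 9.09, 9.26, 8.90 and 9.16 with DOX in the NOD1 line. All NOD1 arrays lay above all vector arrays, while with DOX NOD1 array 3 overlapped the NLRP4 arrays. FASN was higher than in the vector line by 0.34 (SE 0.0874, adjusted p = 0.00454) without and 0.33 (SE 0.0874, adjusted p = 0.00621) with DOX, the latter 0.31 (adjusted p = 0.166) on the deposited values. Against the NLRP4 line FASN was higher by 0.35 (adjusted p = 0.00390) without and 0.26 (adjusted p = 0.0279) with DOX. The last call was lost without NLRP4 array 3, at 0.22 (adjusted p = 0.0973), NLRP4 array 4, at 0.22 (adjusted p = 0.105), NOD1 array 2, at 0.21 (adjusted p = 0.108), or NOD1 array 4, at 0.24 (adjusted p = 0.0732), and was 0.10 (adjusted p = 0.586) on the deposited values, 0.26 (adjusted p = 0.0999) when the fit held only the 2 groups compared and 0.24 (adjusted p = 0.0757) without the 4 dimmest arrays.

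SCD, the desaturase that makes oleate from stearate, was lower in the NOD1 line. SCD read 12.76, 12.09, 12.26 and 12.03 without DOX and 12.47, 12.21, 12.37 and 12.05 with DOX in the vector line. SCD read 12.39, 12.35, 12.03 and 12.41 without DOX and 12.74, 12.47, 12.52 and 12.29 with DOX in the NLRP4 line. SCD read 11.89, 12.16, 11.82 and 11.80 without DOX and 11.72, 11.65, 11.74 and 11.82 with DOX in the NOD1 line. With DOX the NOD1 arrays lay below all others, and without DOX NOD1 array 2 overlapped both other lines. SCD was lower than in the induced vector line, at −0.54 (SE 0.135, adjusted p = 0.00366) and than in the induced NLRP4 line at −0.77 (SE 0.135, adjusted p = 0.000129). Without DOX it was lower than in the NLRP4 line, at −0.38 (SE 0.135, adjusted p = 0.0409), which was lost without NLRP4 array 1, 2 or 4, at −0.34 (adjusted p = 0.103), −0.36 (adjusted p = 0.0890) and −0.34 (adjusted p = 0.102), or NOD1 array 1, 3 or 4, at −0.37 (adjusted p = 0.0762), −0.34 (adjusted p = 0.0939) and −0.34 (adjusted p = 0.107), and also without the 4 dimmest arrays, at −0.42 (adjusted p = 0.0604). The uninduced difference from the vector line was −0.37 (adjusted p = 0.0503), and passed the threshold without vector array 2 or 4, at −0.43 (adjusted p = 0.0339) and −0.45 (adjusted p = 0.0234), or NOD1 array 2, at −0.44 (adjusted p = 0.0274). It also passed on the deposited values, at −0.39 (adjusted p = 0.0233), with centred arrays, at −0.52 (adjusted p = 0.0175), with cyclic loess, at −0.38 (adjusted p = 0.0333), without the lowest 25% of genes, at −0.37 (adjusted p = 0.0402), with the mean of each gene's probe sets, at −0.37 (adjusted p = 0.0489), and without the 4 dimmest arrays, at −0.50 (adjusted p = 0.0254).

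ELOVL6, which lengthens palmitate, read 6.81, 6.60, 6.94 and 6.38 in the induced vector line and 6.17, 6.12, 6.03 and 6.28 in the induced NOD1 line. The groups did not overlap, and ELOVL6 was lower in the NOD1 line, at −0.53 (SE 0.144, adjusted p = 0.00707), while the uninduced difference was −0.12 (adjusted p = 0.639). ELOVL6 lay in the lowest 25% of genes by mean signal, as did MVK and ABCG1. FADS2, which desaturates polyunsaturated fatty acids, differed between the induced NOD1 and NLRP4 lines by −0.43 (adjusted p = 0.0724), and by −0.59 (adjusted p = 0.0168) without NLRP4 array 4 and −0.52 (adjusted p = 0.0486) without NOD1 array 4. The difference also passed with array weights, at −0.43 (adjusted p = 0.0482), and without the 4 dimmest arrays, at −0.51 (adjusted p = 0.0350). FADS1, its neighbour in that route, and ACACA, the carboxylase that commits acetyl-CoA to fatty acids, were called in none; ACACA differed from the vector line by 0.062 (adjusted p = 0.646) without DOX, with an interval of −0.10 to 0.22. FADS1 read 11.005 to 11.62 over the 24 arrays and ACACA read 10.61 to 11.04.

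Among the LXR targets, MYLIP was lower in the NOD1 line in all 4 comparisons. MYLIP read 10.96, 11.03, 11.12 and 11.09 without DOX and 10.95, 11.09, 10.98 and 10.98 with DOX in the vector line. MYLIP read 11.30, 11.54, 11.14 and 11.03 without DOX and 11.15, 11.12, 11.46 and 11.20 with DOX in the NLRP4 line. MYLIP read 10.92, 10.63, 10.66 and 10.39 without DOX and 10.51, 10.59, 10.41 and 10.23 with DOX in the NOD1 line. All NOD1 arrays lay below those of the other lines. MYLIP was lower than in the vector line, at −0.40 (SE 0.111, adjusted p = 0.00871) without and −0.56 (SE 0.111, adjusted p = 0.000453) with DOX, and lower than in the NLRP4 line at −0.61 (adjusted p = 0.000191) without and −0.80 (adjusted p = 9.13e-06) with DOX, 1.74-fold in the latter. The cholesterol exporter ABCA1 read 9.24, 9.19, 9.42 and 9.21 in the induced vector line and 9.07, 8.83, 8.76 and 8.93 in the induced NOD1 line, with no overlap, and was lower there, at −0.37 (SE 0.0939, adjusted p = 0.00465). Without DOX, ABCA1 differed by −0.24 (adjusted p = 0.0622), which passed the threshold without vector array 1, at −0.29 (adjusted p = 0.0323), or NOD1 array 3, at −0.30 (adjusted p = 0.0252), and also with cyclic loess, at −0.31 (adjusted p = 0.0253), without the lowest 25% of genes, at −0.24 (adjusted p = 0.0487), and with array weights, at −0.27 (adjusted p = 0.0496). The uninduced NLRP4 line differed from the vector line in ABCA1 by −0.27, also not called. Between the NOD1 and NLRP4 lines ABCA1 differed by 0.027 without and −0.19 with DOX, and neither difference was called. ABCG1, the other exporter, was not called; its difference from the vector line was 0.21 (adjusted p = 0.147) without and −0.14 (adjusted p = 0.360) with DOX. NR1H2, the LXR on the list, was not analysed here, so the set held targets and no receptor. The other LXR, NR1H3, was measured, but it is not a member and is counted below among the other fatty acid and LXR genes.

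The uninduced and induced comparisons of the NOD1 line with the vector line use different arrays of the same lines. Between them 28 of 32 members kept their sign, and 8 members were called in both, each in the same direction: CYP51A1, FASN, FDPS, IDI1, INSIG1, INSIG2, MYLIP and NSDHL. These 8 make up 88.9% of the 9 called without DOX and 57.1% of the 14 called with DOX. Over all genes 75.8% kept their sign and 19.1% were called in both in the same direction, which is 76.5% of those called without and 74% of those called with DOX. Across the 32 members the differences correlated at r = 0.882, a description over genes that share the arrays and are not independent replicates. The arrays of the groups were apart for 10 members without DOX, 3 of them above and 7 below, and for 18 members with DOX, 6 above and 12 below, counts that include members not called. Over all genes the arrays were apart for 21.0% without DOX, 11.1% above and 9.84% below, and for 28.7% with DOX, 15.5% above and 13.2% below.

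**Figure D3:**
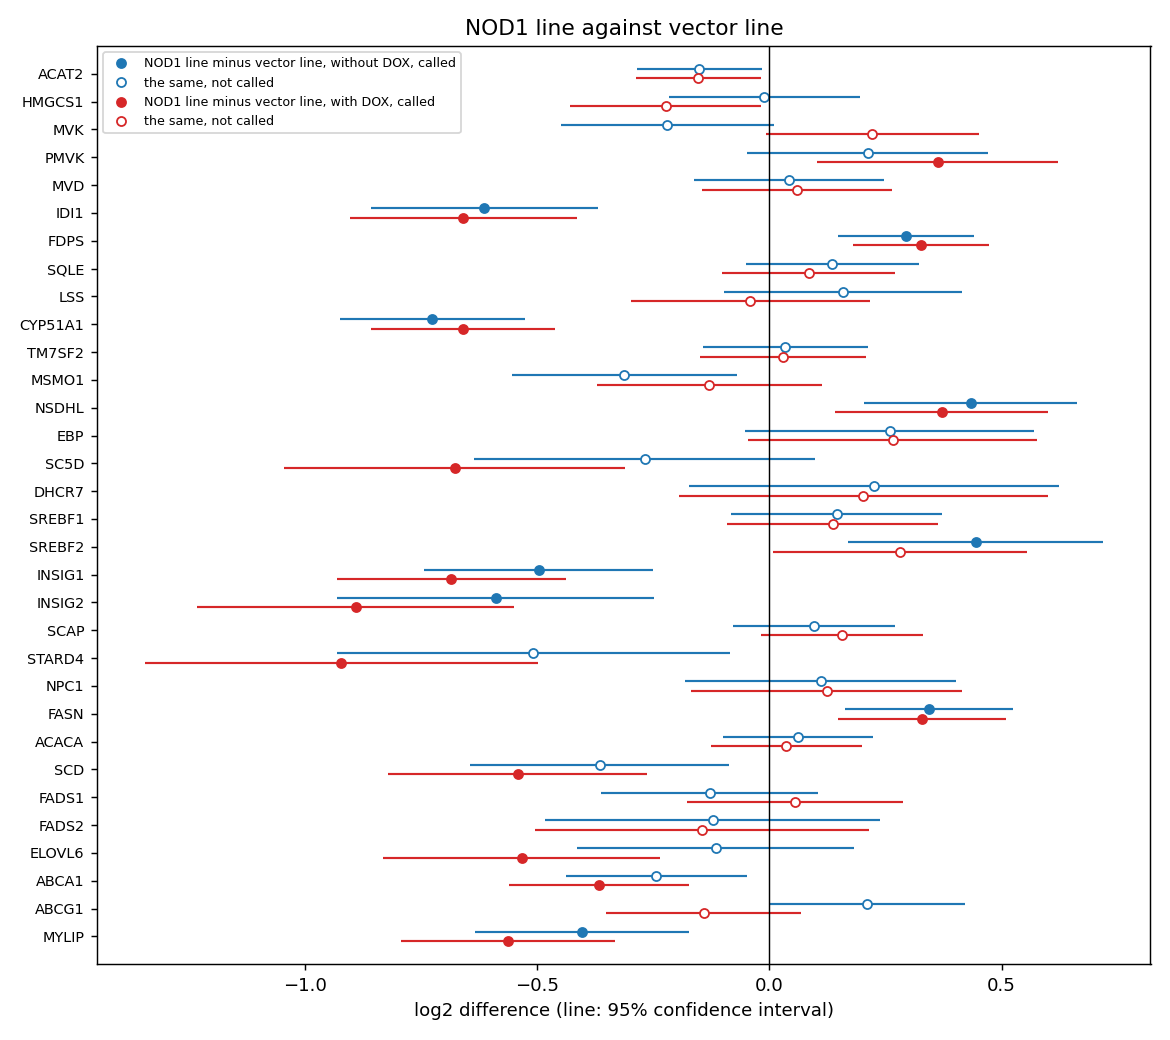
Log2 difference between the NOD1 and vector lines for the 32 members, without DOX (blue) and with DOX (red); lines are 95% confidence intervals and filled points are called at an adjusted p under 0.05. Filled points lie left of 0 for IDI1, CYP51A1, INSIG1, INSIG2 and MYLIP and right of 0 for FDPS, NSDHL and FASN in both conditions.

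Against the NLRP4 line, the uninduced NOD1 line differed in 13 of 32 members (40.6%), beside 27.0% of all genes. PMVK, NSDHL, SREBF2 and FASN were higher (all genes: 14.1%), and IDI1, CYP51A1, MSMO1, INSIG1, INSIG2, STARD4, ACAT2, SCD and MYLIP were lower (all genes: 12.8%). With DOX the count was 10 (31.2%), beside 25.4% of all genes, with FASN alone higher (all genes: 13.4%) and HMGCS1, IDI1, CYP51A1, INSIG1, INSIG2, STARD4, ACAT2, SCD and MYLIP lower (all genes: 12%). The number called in both conditions was 9, all in the same direction, which is 69.2% of the 13 and 90% of the 10, and 23 of 32 kept their sign. Over all genes 72.3% kept their sign and 18.1% were called in both in the same direction, 67.1% of those called without and 71.1% of those called with DOX. The NOD1 arrays are shared with the comparisons against the vector line, so the 2 sets of results are not independent of each other. Here too the shares of the members describe a choice made with earlier results known.

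No member passed the adjusted threshold between the NLRP4 and vector lines: limma called 0 of 32 members without DOX and 0 with DOX, where it called 0.0163% and 0.0380% of all genes. At an unadjusted p under 0.05, ABCA1 alone passed without DOX (all genes: 4.96%), at −0.27 (unadjusted p = 0.00841, adjusted p = 0.833). With DOX, 5 members passed unadjusted (all genes: 6.11%): HMGCS1 at 0.24, FDPS at 0.18, DHCR7 at 0.44, SREBF2 at 0.32 and MYLIP at 0.23, each with an adjusted p of 0.706 or more. The 95% interval of the difference lay within 0.5 of 0 in 30 members without DOX and in 25 with DOX. For the 5 members lower in the NOD1 line in all 4 comparisons, the uninduced NLRP4 line differed from the vector line by 0.042 (CYP51A1), 0.18 (IDI1), 0.085 (INSIG1), 0.20 (INSIG2) and 0.20 (MYLIP), none of them called.

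Between arrays with and without DOX, limma called 0 of the 32 members in the vector line, 0 in the NLRP4 line and 0 in the NOD1 line. In the NOD1 line limma called 0.0109% of all genes; at an unadjusted p under 0.05 (all genes: 5.77%) the members MSMO1 and ABCA1 passed. MSMO1 read 10.42, 10.14, 10.40 and 10.43 without DOX and 10.57, 11.05, 10.71 and 10.72 with DOX, a difference of 0.41 (95% interval 0.17 to 0.66, adjusted p = 0.470), and ABCA1 differed by −0.27 (adjusted p = 0.693). The 95% interval lay within 0.5 of 0 for 29 members; it was −0.12 to 0.28 for CYP51A1, −0.10 to 0.39 for IDI1 and −0.24 to 0.26 for INSIG1, and the differences of these genes from the vector line lay outside these intervals. In the NLRP4 line limma called 0.0163% of all genes, and NSDHL at 0.26, SREBF2 at 0.28 and ACACA at 0.18 passed unadjusted (all genes: 8.05%), with an adjusted p of 0.579 or more. In the vector line, where DOX has no insert to induce, limma called 0 genes (0%), and ABCG1 passed unadjusted (all genes: 3.38%) at 0.33 (adjusted p = 0.999). Averaged over the 3 lines, 0 members were called (all genes: 0.0271%) and 3 passed unadjusted (all genes: 5.56%): MSMO1 at 0.28 (adjusted p = 0.342), TM7SF2 at 0.14 (adjusted p = 0.793) and ABCA1 at −0.15 (adjusted p = 0.793). The interval of this average lay within 0.5 of 0 for all 32 members, from −0.27 at the lowest bound to 0.42 at the highest. A change of under 0.5 in a single member would often go undetected within 1 line, where the interval reached a median of 0.232 to either side.

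**Figure D4:**
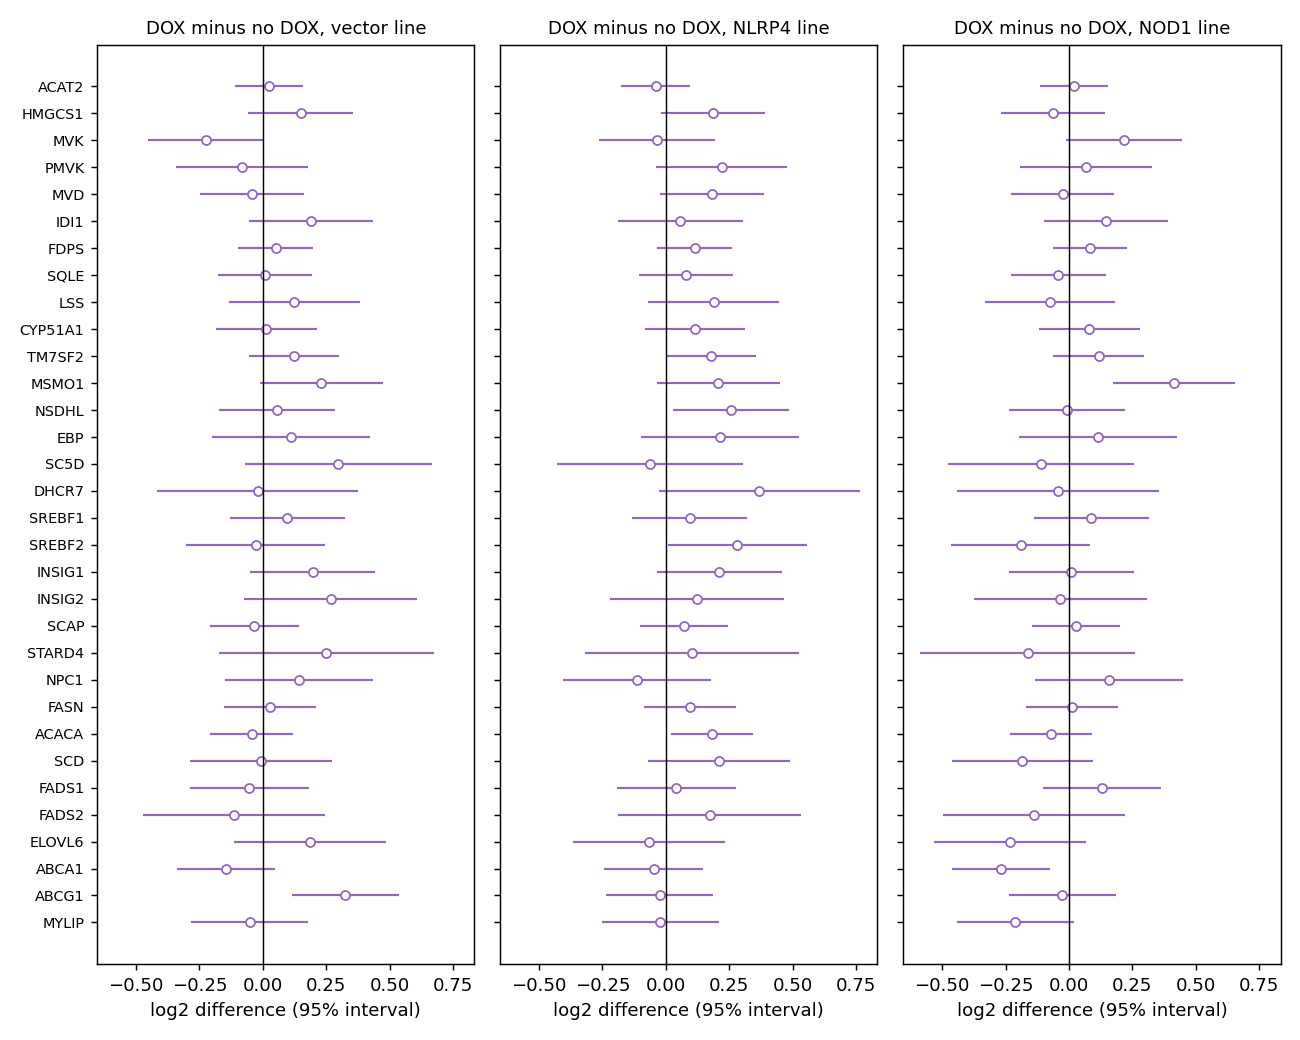
Log2 difference between arrays with and without DOX for the 32 members in the vector line (left), the NLRP4 line (middle) and the NOD1 line (right); points are differences of 4 against 4 arrays, lines are 95% confidence intervals, and open points are not called. All points are open, and MSMO1 at 0.41 in the NOD1 line lies farthest from 0 there.

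In the NLRP4 line, 24 of 32 members had a DOX difference above 0, with a median of 0.11 beside 0.01 over all genes. Cyclic loess gave 24 members above 0 and a median of 0.08 beside −0.001 over all genes, and the array median as a covariate gave 24 and 0.0999 beside −0.0002. The lean turned under another scaling: with arrays centred on their medians, 8 members lay above 0 and the median was −0.09 beside −0.06 over all genes. On the deposited values 28 members lay above 0, and the median was 0.23 beside 0.26. The deposited array medians averaged 8.47 ± 0.0988 in the uninduced and 8.79 ± 0.0490 in the induced NLRP4 line (SD, n = 4). The test of whether DOX acted differently between lines called 0 members in each pair of lines. Between the NOD1 and vector lines 0.00543% of all genes were called and 4.05% passed unadjusted, among them MVK at 0.44 and ABCG1 at −0.35. For MVK, uninduced vector array 1 read 8.28, against 7.67 to 7.74 for the rest of that group. Between the NLRP4 and vector lines 0.00543% were called and 4.92% passed unadjusted, ABCG1 among them at −0.35. Between the NOD1 and NLRP4 lines 0.0109% were called and 8.01% passed unadjusted, with SREBF2 at −0.47 and ACACA at −0.25. No adjusted p of a member in these 3 tests was below 0.545.

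Further genes of the same pathways, from lists that hold no member, differed between the NOD1 and vector lines as well. Of 24 other sterol and SREBP pathway genes 18 were measured, and 10 were called without DOX (55.6%), 5 higher and 5 lower, and 8 with DOX (44.4%), 5 higher and 3 lower. Of 28 other fatty acid and LXR genes 26 were measured, and 15 were called without DOX (57.7%), 10 higher and 5 lower, and 13 with DOX (50.0%), 8 higher and 5 lower; over all genes 24.9% and 25.8% were called. MBTPS2, the intramembrane protease that releases SREBPs, was lower, at −0.87 (adjusted p = 5.47e-05) without and −1.07 (adjusted p = 4.02e-06) with DOX. SOAT1, which esterifies cholesterol for storage, was lower, at −0.67 (adjusted p = 1.46e-05) and −0.45 (adjusted p = 0.00109), and LBR, a nuclear membrane protein with sterol reductase activity, at −0.59 (adjusted p = 7.47e-06) and −0.53 (adjusted p = 2.29e-05). ACSL4, which activates polyunsaturated fatty acids, was lower, at −0.59 (adjusted p = 8.54e-05) and −0.63 (adjusted p = 3.84e-05). LPL, the lipoprotein lipase, was higher by 0.75 (adjusted p = 4.59e-07) without and 1.12 (adjusted p = 1.79e-09) with DOX, and OSBP, an oxysterol-binding lipid carrier, by 0.61 (adjusted p = 0.000201) and 0.32 (adjusted p = 0.0370). The arrays of the 2 lines did not overlap for any of these 6 genes in either condition. They were the 6 with the lowest p without DOX, so their uninduced values describe a choice. The lists were themselves chosen with earlier results of these data known, so their shares describe a choice as well. The shares over all genes include the genes of lowest mean signal.

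How many members were called depended on the scaling of the arrays. Against the induced vector line, 10 members were called lower under quantile normalization, cyclic loess, the deposited values and centred arrays alike, while the members called higher numbered 4, 3, 1 and 2. Over all 18417 genes, 2244, 2446, 2130 and 2090 were called lower there and 2502, 2295, 1632 and 1971 higher. Against the uninduced NLRP4 line, 9 were called lower under each of the 4, and 4, 4, 4 and 1 higher. Against the uninduced vector line, 5, 8, 6 and 7 were called lower and 4, 4, 4 and 2 higher, and against the induced NLRP4 line 9, 8, 9 and 8 lower and 1, 1, 1 and 3 higher. In that last comparison, FDPS and PMVK joined FASN with centred arrays, at 0.46 (adjusted p = 0.0252) and 0.36 (adjusted p = 0.0246), and on the deposited values FDPS was called in place of FASN, at 0.27 (adjusted p = 0.0330). ELOVL6 joined the lower members there under both, at −0.45 (adjusted p = 0.0478) and −0.63 (adjusted p = 0.00550). Over all genes the split moved too: between the induced NOD1 and NLRP4 lines 2465 genes were called higher and 2219 lower, but 1523 and 3677 on the deposited values, where the median difference of all genes was −0.21. Cyclic loess gave 2246 higher and 2309 lower there, and centred arrays 2609 and 1762. Between the uninduced NOD1 line and the vector or NLRP4 line, centred arrays gave 1398 higher and 2433 lower, and 1418 higher and 2772 lower, beside 2399 and 2193, and 2600 and 2364, under quantile normalization. In the same 2 comparisons cyclic loess gave 2068 and 2409, and 2229 and 2617. The deposited values gave 2198 and 1643, and 2733 and 1801.

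**Figure D5:**
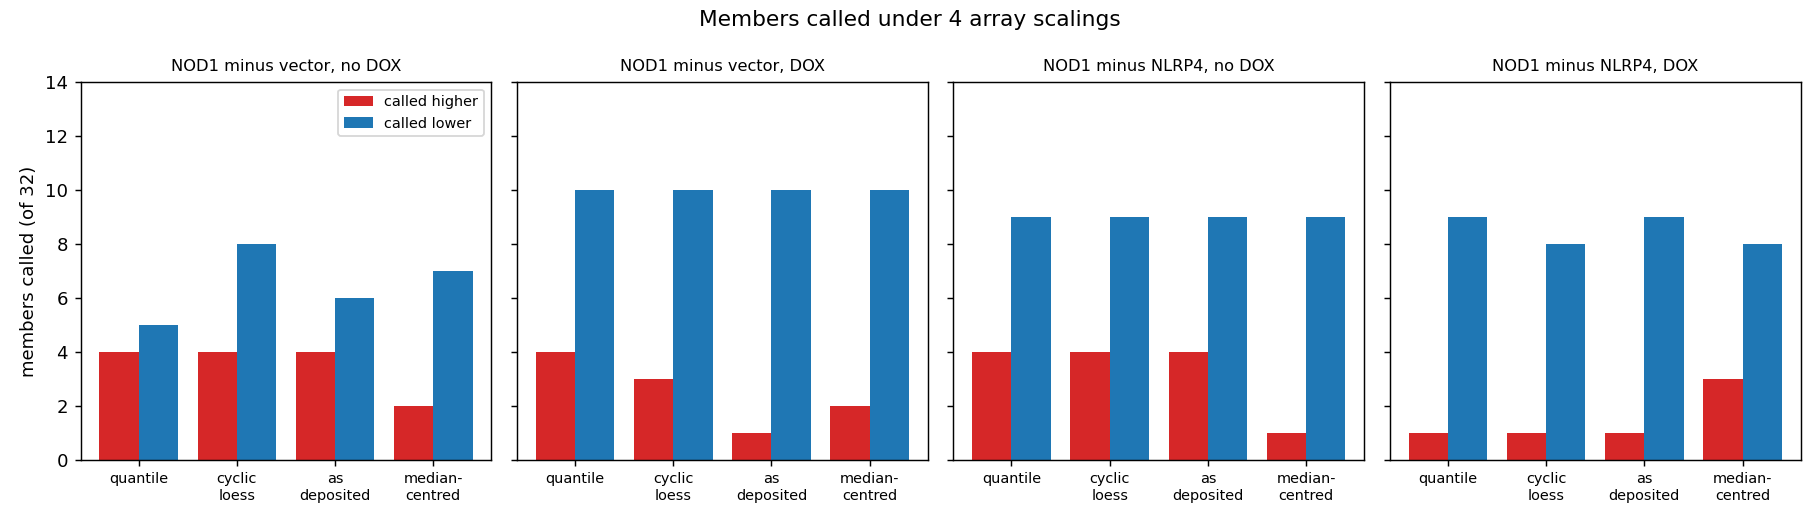
Number of the 32 members called higher (red) and lower (blue) at an adjusted p under 0.05 in each of the 4 comparisons of the NOD1 line, under 4 ways of scaling the arrays. The blue bars stay between 5 and 10 members, and the red bars between 1 and 4.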

How the data were processed

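Total RNA of 24 THP-1 samples was measured on Affymetrix Human Gene ST arrays. The deposited values are log2 signals for 33297 probe sets, made with RMA and oligo per the submitters' processing notes; tool versions and genome build: not given in the sources used here. Of the probe sets, 19460 carry 1 gene symbol, 1754 several and 12083 none; symbols were updated through Entrez IDs (19429 matched in RefSeq, GRCh38.p14). For the 769 genes with several such probe sets, the one with the highest mean was kept, giving 18417 genes. Values were quantile-normalized and fitted with limma 3.58.1 (R 4.3.3; lmFit on 6 group means over 24 arrays, 18 residual degrees of freedom, eBayes, Benjamini-Hochberg over all genes), and 13 contrasts were read. Promoter letters were searched with Python 3.11.15. The fitting code was tested on simulated data.

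Arrays were grouped by the labels; replicate numbers follow the accession order and pair nothing. Per the rule for naming, all 35 listed genes may be named, and 6 other pathway genes are named by lowest p. Array values in every group are given for the 12 members called in the most comparisons between lines. For HMGCS1, ACAT2, MSMO1, SC5D, ELOVL6 and ABCA1, array values are given for some groups only, mostly those called apart. The members and lists were chosen with earlier results of these data known. Alternatives were other scalings, a filter on dim genes, array weights, the array median as a covariate, other probe set and sample choices, and leaving out single arrays; leaving out the 4 dimmest arrays was added after seeing the data. With 4 arrays a group, their number limits the precision.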

Additional observations from a re-analysis of the deposited data

Results flagged for a closer look

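In 12 of 192 groups of 4 arrays, 1 array of a member stood apart from the other 3 by more, relative to the group's whole range, than Dixon's 95% critical value; chance marks about 1 group in 20. In the uninduced vector line, array 1 was high for MVK, at 8.28 against 7.67 to 7.74, and for PMVK, at 10.82 against 10.18 to 10.22. Array 2 of that group was high for INSIG2, at 10.66 against 10.20 to 10.26, and array 4 was low for EBP, at 11.99 against 12.38 to 12.41. In the uninduced NOD1 line, array 3 was high for HMGCS1, at 12.52 against 11.89 to 11.94, and for SC5D, at 10.68 against 9.95 to 10.06. Array 2 of that group was low for MSMO1, at 10.14 against 10.40 to 10.43, and high for FADS2, at 10.20 against 9.59 to 9.69. In the induced NOD1 line, array 4 was low for SQLE, at 12.74 against 12.91 for each of the others, and for DHCR7, at 8.36 against 9.22 to 9.34. In the uninduced NLRP4 line, array 3 was low for SCD, at 12.03 against 12.35 to 12.41, and array 2 was low for FADS1, at 11.26 against 11.32 to 11.33. Vector array 2, NOD1 array 2 without DOX and NOD1 array 4 with DOX are also among the 4 arrays with the lowest deposited medians.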

How the results depend on the processing

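Of the calls in the NOD1 line, 6 of 9 against the uninduced vector line, 10 of 14 against the induced vector line, 7 of 13 against the uninduced NLRP4 line and 7 of 10 against the induced NLRP4 line held under every alternative run in which the gene was tested; 8, 12, 9 and 8 held whichever single array of the groups compared was left out. With arrays centred on their medians, the members called higher were 2 against the uninduced vector line (4 under quantile normalization), 2 against the induced vector line (4), 1 against the uninduced NLRP4 line (4) and 3 against the induced NLRP4 line (1), and ACAT2 against the induced NLRP4 line turned from −0.19 to 0.087. Over all genes, centred arrays gave 1398, 1971, 1418 and 2609 higher in the same order. Quantile normalization gave 2399, 2502, 2600 and 2465. The deposited values gave 1 higher against the induced vector line, beside 1632 of all genes. Without the 4 dimmest arrays there were 2 higher against each uninduced line and 0 against the induced NLRP4 line, where fitting the compared groups alone also gave 0. Over all genes, leaving out the 4 dimmest arrays gave 1668 higher against the uninduced vector line and 1795 against the uninduced NLRP4 line. Against the induced NLRP4 line it gave 2251, and fitting the compared groups alone gave 2219. Cyclic loess, and leaving out the lowest 25% of genes (29 members tested), gave 8 lower against the uninduced vector line in place of 5. Over all genes these gave 2409 and 2144 lower, in place of 2193. Leaving out single arrays gave 2 to 4 higher against the induced vector line, 2 to 6 against the uninduced NLRP4 line and 0 to 1 against the induced NLRP4 line. The cause of these moves was not tested. For the deposited values the median of all genes shifted by 0.26 for DOX in the NLRP4 line. No paired analysis was possible because the labels give the samples no replicate number that is shared between groups.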
